A study of Mus musculus with 2 samples.

Results

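The 38 ribosome biogenesis genes described here encode nucleolar proteins, factors that assemble the small and large ribosomal subunits, and factors that act when subunits leave the nucleus. They were chosen as a list of symbols, and 38 of 38 were found among the 32285 genes counted. The rule names the symbols and uses no threshold on a measured value. Transcripts were counted in single cells of 2 mouse cultures of myeloid-derived suppressor cells (MDSC), immature myeloid cells that restrain T cells. Both cultures were grown in vitro with recombinant mouse IL-6 and GM-CSF at 40 ng/mL each and were taken on day 4. One culture received the vehicle DMSO. The other received 50 nM selinexor, an inhibitor of the nuclear export receptor exportin 1, spelled Sleninexor in the labels' protocols. Cells carried feature barcodes, were sorted as viable CD11b+ cells and were pooled before droplet capture. Each culture is 1 library, so the difference between libraries has no replicate check, and no test was made.

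Ribosomes are built in the nucleolus, where RNA polymerase I transcribes the ribosomal RNA precursor. Small nucleolar ribonucleoproteins of the box C/D and box H/ACA kinds guide its methylation and pseudouridylation, and assembly factors fold and cut it around ribosomal proteins. Finished precursors of both subunits are carried through nuclear pores, with exportin 1 as a receptor that binds the large subunit through the adaptor Nmd3. Genes of this pathway are known to be active in growing and dividing cells, among them granulocyte precursors, and to be turned down as neutrophils mature. Many of them are known targets of the transcription factor Myc, which binds the letters CACGTG with its partner Max.

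Filtering left 1742 DMSO cells with 14209188 gene UMIs (unique molecular identifiers, which count molecules) and 1962 selinexor cells with 12771314. The median cell had 7786.5 and 3912 UMIs, and 0 barcodes were shared. Clustering without these genes gave 13 clusters, 9 of which had at least 20 cells in each library. Cluster 10 was early neutrophil-like (72 DMSO and 31 selinexor cells) and was led by Mpo, Ctsg and Elane. Clusters 6 (146 and 140) and 4 (127 and 168) were intermediate neutrophil-like, and a UMI of the proliferation genes Mki67 or Top2a was seen in 95.9% and 97.1% of cluster 6 cells but in 35.4% and 35.1% of cluster 4 cells. Clusters 5 (118 and 169), 1 (352 and 28) and 0 (120 and 678) were late neutrophil-like, and clusters 1 and 0 had low UMI counts per cell. Cluster 8 (208 and 48) was named macrophage-like by the marker rule, though dendritic cell markers held more of its UMIs. Cluster 7 (170 and 108) consisted of cycling cells with no class name. Cluster 3, monocyte-like (8 and 335), and cluster 2, unnamed and led by stefin genes and Dmkn (354 and 16), could not be compared between libraries. The label MDSC could be set only against these myeloid markers. T cell markers made up 15 and 20 UMIs in all. Of the 38 genes 17 overlap a gene on the other strand in the annotation of mm10, and whether the counting used strand is not given in the sources used here, so reads of the pairs may be shared. Mrto4 also has named pseudogenes.

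RefSeq promoters (build GRCm38.p6, 250 bases before to 50 after each start) were at hand for 32 of the 38 genes, and 7 of the 32 held CACGTG, which reads the same on both strands. That is 21.9%, beside 21.3% of 89 other ribosome biogenesis genes, 12.5% of 8273 measured genes and 8.09% of all 27025 genes with a promoter. The letters are a match to the motif, and binding was not measured. The stretches around the motif are shown because these genes are compared with the others below. They are printed 5′ to 3′ on the gene's strand, with the motif in capitals.
Nmd3, chr3:69721911-69721976, plus strand: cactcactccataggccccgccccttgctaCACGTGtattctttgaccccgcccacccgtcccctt
Nop2, chr6:125131793-125131858, plus strand: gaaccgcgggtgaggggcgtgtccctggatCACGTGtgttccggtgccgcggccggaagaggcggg
Ltv1, chr10:13193092-13193121, minus strand: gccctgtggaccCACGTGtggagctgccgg
Pes1, chr11:3963965-3963994, plus strand: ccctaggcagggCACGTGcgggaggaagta
Pno1, chr11:17211540-17211564, minus strand: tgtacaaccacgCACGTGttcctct
Tsr1, chr11:74898092-74898121, plus strand: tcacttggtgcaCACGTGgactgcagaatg
Wdr43, chr17:71616220-71616249, plus strand: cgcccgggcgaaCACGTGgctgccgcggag
In Nmd3 and Nop2 the motif lay before the RefSeq start, and in the other 5 it lay within the 50 bases after it.

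Over whole libraries the pathway stood at the same summed level with and without selinexor. The 38 genes held 0.293% of gene UMIs in the DMSO library (41697 UMIs, 95% Clopper-Pearson interval 0.291 to 0.296%) and 0.292% in the selinexor library (37256 UMIs, 0.289 to 0.295%). Without Npm1 and Ncl, the members with the most UMIs, the level was 0.175% in both. Whole libraries mix cell states, so a different mix of cells and a different level per cell cannot be told apart in these sums. Intervals here and below cover counting error only. Each gene's count was scaled to CPM of the gene UMIs in the library or group of cells. A log2 ratio below is the difference of log2(CPM + 1) between the selinexor and the DMSO cells, positive where selinexor was higher, and the range after it is the counting interval of the plain ratio of CPM. All 38 genes were measured, meaning at least 50 UMIs over both libraries. Their median log2 ratio was 0.03, with 23 genes above 0 and 15 below, and the 10387 genes measured in all had a median of 0.13. With TMM scaling, which brings that overall median to 0.00, the 38 genes had a median of -0.11 and 14 lay above 0. With the same mix of clusters in both libraries their median was 0.18, with 33 above 0, and that of all genes was 0.08, so the order of these medians was the other way round. None (0 of 38) was higher by 1.5-fold or more, beside 9.82% of measured genes, and 0 were lower by 1.5-fold or more, beside 3.86%.

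Most genes of the early steps had small differences, but Polr1a and Polr1b were among the highest ratios of the list. The RNA polymerase I subunits Polr1a, the catalytic one, and Polr1b had 182 and 65 UMIs in the DMSO library and 211 and 80 in the selinexor library. Their log2 ratios were 0.34 (0.07 to 0.66) and 0.38 (-0.04 to 0.95), and Polr1c, shared with RNA polymerase III, had -0.04. Among nucleolar proteins, the chaperone nucleophosmin (Npm1) had 9097 and 8272 UMIs, or 640 and 648 CPM, a log2 ratio of 0.02 (-0.03 to 0.06). Nucleolin (Ncl) had 549 and 517 CPM, and the helicase Ddx21 had 168 and 164 CPM. The other nucleolar proteins, Nolc1, which binds small nucleolar ribonucleoproteins, and Lyar, had ratios of 0.16 and -0.07. The box C/D proteins Fbl, Nop56 and Nop58 and the U3 protein Rrp9 lay between -0.06 and 0.05. The box H/ACA proteins Dkc1, Nhp2 and Gar1 had ratios of 0.14, 0.03 and -0.18. Fbl is the methyltransferase and Dkc1 the pseudouridine synthase of these particles.

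Assembly factors spread more widely than the snoRNP proteins. The 7 small subunit factors summed to 171 CPM in the DMSO library and 190 CPM in the selinexor library, and Tsr1 had the highest ratio among them, 0.34 (0.07 to 0.66). Wdr43, a part of the small subunit processome, had 816 and 837 UMIs and a ratio of 0.19 (0.05 to 0.33). Nop14, Wdr75, Rrp12 and Bysl had ratios from 0.09 to 0.18, and Pno1 had -0.02. Of the 13 large subunit factors, Pes1, which forms the PeBoW complex with Bop1 and Wdr12, had the highest ratio of all 38 genes. It had 553 UMIs (38.9 CPM) in the DMSO library and 686 (53.7 CPM) in the selinexor library, a log2 ratio of 0.45 (0.30 to 0.63). Of its partners, Wdr12 had a ratio of 0.33 (0.13 to 0.57) and Bop1 had -0.14 (-0.36 to 0.07). The nucleolar GTPase Gnl3 had 70.7 and 84.5 CPM, a ratio of 0.25 (0.13 to 0.38). Ebna1bp2 had 74.7 and 59.7 CPM, a ratio of -0.32 (-0.46 to -0.19), and Rrp1b and Mrto4 had -0.24 and -0.19. The remaining 6 large subunit factors (Nop2, Nop16, Rrs1, Nip7, Noc2l and Noc3l) had ratios from -0.03 to 0.21.

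With CPM scaling the subunit export and release genes were the 1 role with all of its genes below 0. That they were the 1 such role depends on the scaling, since TMM moved the median of the 38 genes from 0.03 to -0.11. They summed to 196 CPM in the DMSO library and 158 CPM in the selinexor library. Eif6, which keeps the large subunit from joining the small one too early, had 2034 UMIs (143 CPM) and 1414 UMIs (111 CPM), the lowest ratio of the 38 at -0.37 (-0.47 to -0.27). Ltv1, a small subunit factor released late in assembly, had 426 and 326 UMIs, a ratio of -0.22 (-0.44 to -0.02). Nmd3, the adaptor between the large subunit and exportin 1, had 327 and 281 UMIs, a ratio of -0.06 (-0.30 to 0.17). In the same libraries Xpo1, the gene of exportin 1, had 66.2 and 200 CPM, a log2 ratio of 1.58.

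**Figure D1:**
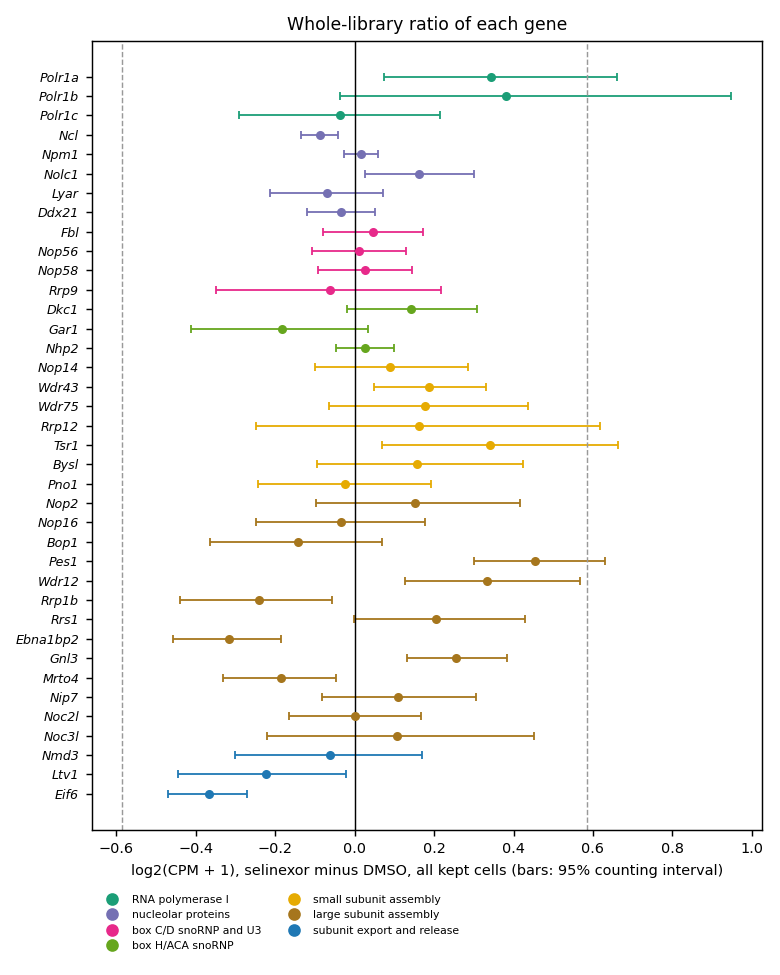
Log2 ratio of each of the 38 genes over all kept cells (x axis, selinexor minus DMSO; bars are 95% counting intervals), grouped and coloured by role on the y axis. Dashed lines mark 1.5-fold; every gene lies between them, from Eif6 at -0.37 to Pes1 at 0.45.

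The level differed far more between cell states than between libraries. In the DMSO library the 38 genes held 0.523% of UMIs in cluster 10, 0.222% in the cycling cluster 6, 0.070% in cluster 4 and 0.087% in cluster 5. In the selinexor library the same clusters had 0.498%, 0.222%, 0.052% and 0.073%. Early neutrophil-like cells thus stood 7.52-fold (6.87 to 8.25) above cluster 4 in the DMSO library and 9.55-fold (8.63 to 10.6) above it in the selinexor library. Without Npm1 and Ncl these folds were 6.49 and 8.75. Of the cluster 10 cells 94.4% and 93.5% carried a UMI of Mki67 or Top2a. Median UMI counts per cell were 14090 and 14792 in cluster 10, 10411 and 11268.5 in cluster 6 and 5620 and 4747 in cluster 4, and the part of depth in this order was not tested beyond the thinning that follows. With each cell thinned to 2000 UMIs, the median cell had 0.450% in cluster 10 of both libraries, 0.150% in cluster 6 and 0.050% in cluster 4, which is the share that 1 UMI makes.

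Most measured genes followed this order. From cluster 10 to cluster 6, 33 of 36 genes measured there (at least 20 UMIs over both clusters) were lower by 1.5-fold or more in the DMSO library, where 23.3% of genes were, and 1 was higher by that fold, beside 14% of genes. In the selinexor library 26 of 35 were lower by that fold, beside 22.5% of genes. From cluster 6 to cluster 4, 29 of 31 measured genes were lower by that fold in the DMSO library, beside 31.9% of genes, and 31 of 32 in the selinexor library, beside 32.5%. In either step a gene could be measured through the first cluster alone, cluster 10 or cluster 6, so these counts are a description. The median log2 ratio of cluster 4 to cluster 6 was -1.58 and -2.25, beside -0.20 and -0.13 over all genes. From cluster 4 to the late cluster 5 the median was 0.49 over 14 genes and 0.53 over 10, so the low point was cluster 4 and not the last state. Of the 38 genes, 28 had their lowest level in cluster 4 in the DMSO library and 29 in the selinexor library, among the clusters with at least 400000 UMIs. The share of all genes lowest in cluster 4 is not given here. These counts therefore describe the list and do not set it apart from other genes.

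Single genes show the size of the step. Npm1 had 1447 CPM in cluster 10, 496 in cluster 6 and 111 in cluster 4 of the DMSO library, and 1247, 465 and 98.2 CPM in those of the selinexor library. Nop58, a core box C/D protein, had 151, 68.2 and 8.21 CPM in the DMSO clusters and 188, 67.9 and 6.93 in the selinexor clusters. Nop14, a small subunit assembly factor, had 30 UMIs in cluster 6 and 1 in cluster 4 of the DMSO library, and 26 and 1 in the selinexor library. Both libraries had the clusters in the same order for these 3 genes.

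The roles differed in the size of this step. Box C/D and U3 genes had the widest range, with cluster 10 at 420 CPM and cluster 4 at 38.3 CPM in the DMSO library, an 11.0-fold difference (7.48 to 16.7). In the selinexor library they differed 18.5-fold. Nucleolar proteins differed 9.02- and 10.6-fold, small subunit factors 9.05- and 8.93-fold, box H/ACA proteins 8.32- and 8.57-fold and large subunit factors 6.77- and 9.07-fold. The 3 export and release genes differed 2.30-fold (1.76 to 3.03) and 3.34-fold (2.26 to 4.99), and in both libraries these intervals lay below those of every role but RNA polymerase I. The RNA polymerase I genes had 24 and 14 UMIs in these DMSO clusters, a 1.17-fold difference (0.582 to 2.45). In the selinexor clusters they had 16 and 12 UMIs, a 2.46-fold difference (1.09 to 5.69). Polr1c had 5.61 CPM in cluster 10 and 16.4 in cluster 6 of the DMSO library, the 1 gene that was higher there by 1.5-fold.

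**Figure D2:**
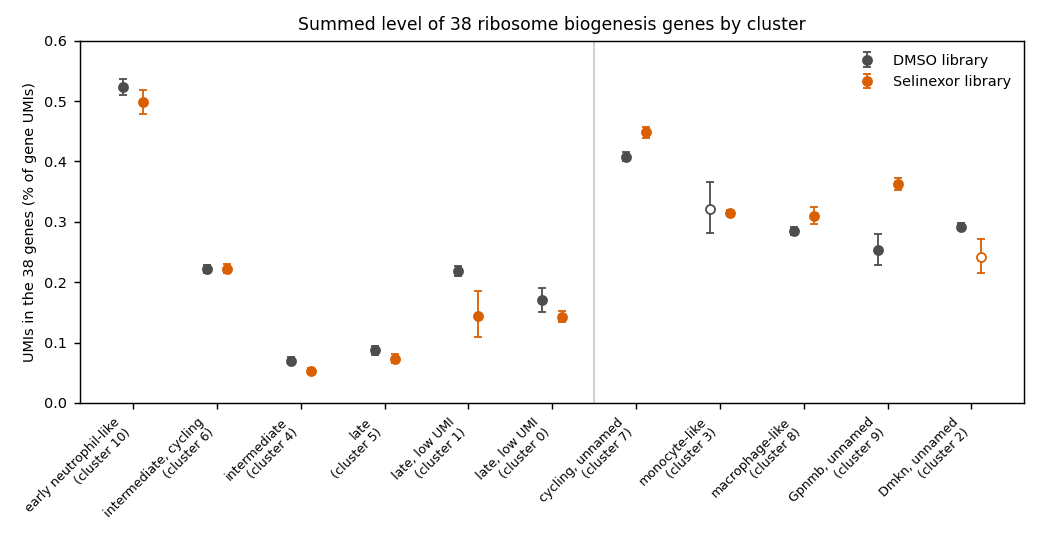
Summed level of the 38 genes as a percent of gene UMIs (y axis) in 11 clusters (x axis; the small clusters 11 and 12 are not drawn) for both libraries, with 95% Clopper-Pearson intervals; open circles mark fewer than 20 cells. Neutrophil-like clusters, left of the line, run from 0.523% and 0.498% in cluster 10 to 0.070% and 0.052% in cluster 4, and the clusters drawn on the right lie between 0.242% and 0.448%.

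Outside the neutrophil-like states the genes stood at intermediate to high levels. The cycling cluster 7 had 0.408% in the DMSO library and 0.448% in the selinexor library, and its cells had median UMI counts of 15340.5 and 17363. Macrophage-like cells of cluster 8 had 0.285% and 0.310%. The monocyte-like cluster 3, nearly all of it from the selinexor library, had 0.314% there, and cluster 2, nearly all from the DMSO library, had 0.292% there. Cluster 9, an unnamed cluster led by Gpnmb and of low UMI count in the DMSO library, had 0.254% and 0.363%. Cluster 10 was the highest cluster for 24 of the 38 genes in the DMSO library and 18 in the selinexor library, and cluster 7 for 7 and 12. The matching shares of all genes are not given here, so these counts are a description only.

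Pes1 had another order of cell states than most of the list. It was highest in macrophage-like cells in both libraries, with 65.8 CPM in the DMSO library and 155 in the selinexor library, while cluster 10 had 38 and 12 UMIs, or 35.5 and 25.6 CPM. Pno1, Bysl, Fbl, Polr1a and Polr1b were also highest in macrophage-like cells of the DMSO library, and Nop16, Nop2, Polr1c and Ltv1 in those of the selinexor library. Over 17 combinations of library and cluster, the Spearman correlation of each gene with the sum of the other 37 had a median of 0.88. It ran from 0.41 for Polr1c to 0.99 for Npm1. The combinations share libraries and cycling cells, so these values only describe the pattern.

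**Figure D3:**
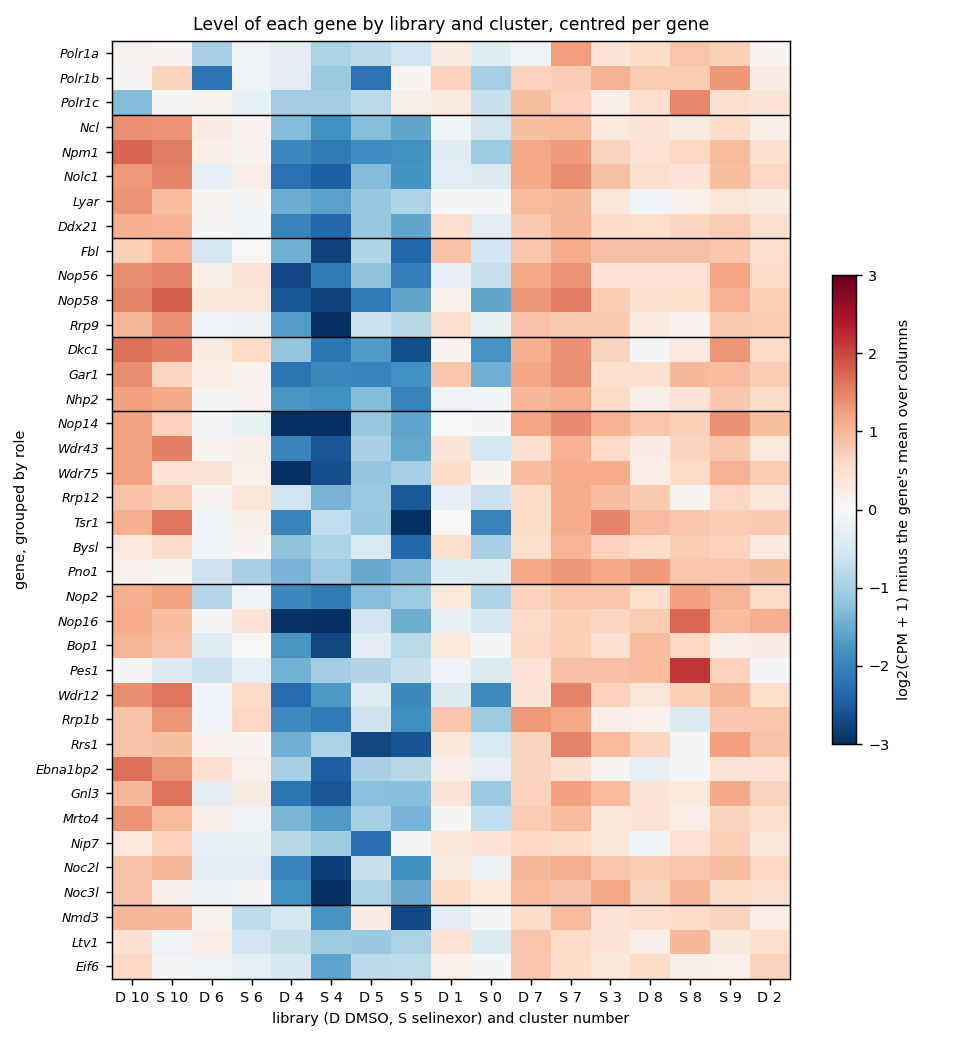
Level of each gene (rows, grouped by role) in 17 combinations of library (D, DMSO; S, selinexor) and cluster (columns), as log2(CPM + 1) minus the gene's mean over the columns. Columns of cluster 10 and cluster 7 are red for most genes and those of clusters 4 and 5 blue, while Pes1 is reddest in macrophage-like cells (cluster 8) of the selinexor library.

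Cycling cells carried more of these transcripts. Cells with a UMI of Mki67 or Top2a had 0.346% in the DMSO library and 0.339% in the selinexor library, and cells without one had 0.214% and 0.204%. Cells with such a UMI were deeper, with median counts of 11650 and 11595 against 4568.5 and 1414.5. After thinning to 2000 UMIs the levels were 0.304% and 0.292% with and 0.188% and 0.161% without. Within macrophage-like cells the same split gave 0.296% and 0.270% in the DMSO library and 0.334% and 0.281% in the selinexor library, a smaller distance than over all cells. In the intermediate neutrophil-like class the ratio of the levels was larger than over all cells. It had 0.201% and 0.082% in the DMSO library and 0.189% and 0.073% in the selinexor library. That split largely repeats the 2 clusters of the class. Of its 185 DMSO cells with such a UMI 140 were in cluster 6, and of the 88 without 82 were in cluster 4. Within cluster 4 the split gave 0.091% and 0.058% in the DMSO library and 0.058% and 0.048% in the selinexor library.

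Within early neutrophil-like cells the libraries were close. The median log2 ratio of the 34 measured genes was -0.03, beside -0.08 over all genes measured there, with 1 gene higher by at least 1.5-fold and 3 lower, beside 9.87% and 15.9% of genes. TMM scaling put the median at 0.08. The higher gene was Gnl3, with 113 UMIs (106 CPM) in the DMSO library and 77 (164 CPM) in the selinexor library, a log2 ratio of 0.63 (0.20 to 1.07). The lower ones were Wdr75 at -0.78 (-2.14 to 0.34), Gar1 at -0.76 (-1.83 to 0.16) and Eif6 at -0.59 (-1.09 to -0.13), and the interval of Eif6 alone lay below 0. Polr1b, Polr1c, Rrp12 and Noc3l had too few UMIs in this class.

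Of the intermediate neutrophil-like clusters, the cycling one showed no common shift and the other a lower level with selinexor. In cluster 6 the median log2 ratio of 36 measured genes was 0.04, with 4 genes at least 1.5-fold higher and 2 lower, beside 8.58% and 8.83% of genes. Rrp1b, a large subunit factor, had 22.1 and 36.2 CPM there, a ratio of 0.69 (0.08 to 1.36). In cluster 4 the summed level was 0.070% (0.064 to 0.076%) in the DMSO library and 0.052% (0.047 to 0.057%) in the selinexor library. Only 11 genes were measured there, with a median of -0.34, 0 at least 1.5-fold higher and 3 lower, beside 17.8% and 11.9% of genes. The 3 were Ebna1bp2 (20 and 8 UMIs), Fbl (14 and 6) and Eif6 (53 and 29). The median of all genes in cluster 4 was 0.05.

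In the late neutrophil-like class the genes were lower with selinexor, across roles. They held 0.171% (0.165 to 0.177%) of UMIs in the DMSO library and 0.115% (0.110 to 0.121%) in the selinexor library. The median log2 ratio of 35 measured genes was -0.58, while that of all 7771 genes measured there was 0.22. Of the 35, 17 were at least 1.5-fold lower and 0 higher, beside 10.2% and 24.6% of genes. For 13 of the 17 the counting interval also lay below 0, which held for 6.83% of genes. Over 20 seeds of the clustering the median of the class ran from -0.67 to -0.44, with 11 to 22 genes lower by that fold and at most 1 higher. The median of all genes ran from 0.13 to 0.29 over these seeds. Shares of all genes past 1.5-fold are not given for them, so the counts over seeds are a description only. Polr1b, Rrp12 and Tsr1 were not measured there, with 11, 7 and 13 UMIs over both libraries.

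Lower levels were seen in most roles of that class. The box H/ACA proteins Gar1 (36 and 6 UMIs) and Dkc1 (41 and 8) had ratios of -1.88 (-3.64 to -0.84) and -1.72 (-3.18 to -0.76), while their partner Nhp2 had 226 and 146 UMIs and a ratio of -0.14. The methyltransferase Fbl had 131 UMIs (71.0 CPM) in the DMSO library and 32 (24.3 CPM) in the selinexor library, a ratio of -1.51 (-2.15 to -0.98). Nop58 had -1.17 and Nop56 -0.61. Among large subunit factors, Rrp1b (60 and 13 UMIs) had -1.62, Wdr12 (25 and 5) -1.60 and Gnl3 (94 and 30) -1.13. Nip7, another large subunit factor, was the 1 measured gene above 0, with 47 and 43 UMIs and a ratio of 0.35 (-0.27 to 0.99). Npm1 had 256 and 173 CPM, a ratio of -0.56 (-0.80 to -0.33), and Ncl had 300 and 225 CPM. By cluster, Ncl had 200 and 283 CPM in cluster 0 and 171 and 142 CPM in cluster 5. In cluster 1 it had 387 and 196 CPM, the latter from 8 UMIs. Cluster 1 also held 31 of the 36 DMSO UMIs of Gar1, 34 of 41 for Dkc1, 105 of 131 for Fbl and 45 of 60 for Rrp1b. In cluster 0 Gar1 had 3 and 4 UMIs, Dkc1 2 and 6 and Rrp1b 6 and 8. The intervals of Gar1, Dkc1 and Rrp1b reached above 0 in clusters 1, 0 and 5. That of Fbl lay below 0 in clusters 1 and 5 but not in cluster 0. The part of the cluster mix in these class ratios was not tested.

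The late class was made of different clusters in the libraries. Of its DMSO cells 352 of 590 were in cluster 1, and of its selinexor cells 678 of 875 were in cluster 0. The median UMI count of the class was 2355 in the DMSO library and 1134 in the selinexor library. The late neutrophil markers held 1.46% and 1.35% of its UMIs and the intermediate ones 1.48% and 0.978%, and their part in the result was not tested. Within clusters the levels were 0.218% (0.210 to 0.227%) and 0.144% (0.110 to 0.186%) in cluster 1, where the selinexor library had 59 UMIs of these genes. They were 0.170% (0.151 to 0.191%) and 0.143% (0.134 to 0.152%) in cluster 0 and 0.087% (0.080 to 0.095%) and 0.073% (0.066 to 0.081%) in cluster 5. In cluster 5, the deeper one, 13 genes were measured with a median of -0.27, of which Fbl, Nop56 and Nhp2 (3) were lower by at least 1.5-fold and 0 higher, beside 9.06% and 27.6% of genes. With cells thinned to 2000 UMIs, which leaves 314 DMSO and 143 selinexor cells of the class, the median was -1.18 over 18 measured genes. Leaving out cells under 2000 UMIs also changes the mix of clusters. Selinexor cells without Mki67 or Top2a had medians of 1047.5 UMIs in cluster 0 and 2397.5 in cluster 5. For cluster 5 cells without those genes the thinned levels were 0.0875% in the DMSO library and 0.0658% in the selinexor library.

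**Figure D4:**
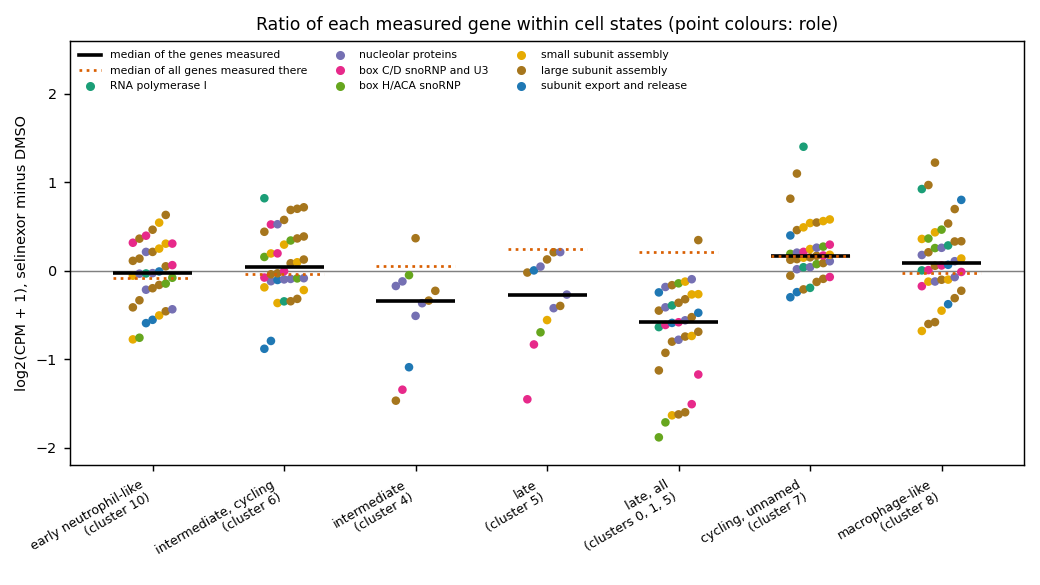
Log2 ratio (y axis, selinexor minus DMSO) of each gene measured in a cell state (x axis), one point per gene coloured by role; black bars are medians of these genes and dotted bars medians of all genes measured there. The late class lies lowest, at -0.58 against 0.22 for all genes, and the median of the early class is -0.03.

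In macrophage-like cells a few genes were higher with selinexor while the list stood near 0. All 38 genes were measured with a median of 0.09, and 5 were higher by at least 1.5-fold and 2 lower, beside 12.5% and 17.2% of genes. Pes1 had 163 UMIs (65.8 CPM) in the DMSO library and 90 (155 CPM) in the selinexor library, a ratio of 1.22 (0.85 to 1.61). Nop16, a large subunit factor, had 30.3 and 60.2 CPM, a ratio of 0.97 (0.37 to 1.59). Polr1c had 0.92 (0.21 to 1.66), Ltv1 0.80 (0.12 to 1.49) and Nop2, an RNA methyltransferase, 0.70 (-0.12 to 1.51). The lower ones were Rrp12 (22 and 3 UMIs) and Rrs1 (66 and 10), and both intervals reached above 0. Macrophage markers held 0.135% and 0.052% of UMIs in this class and dendritic cell markers 0.944% and 1.60%, and their part in these differences was not tested.

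In the cycling cluster 7 the median was 0.17, the same as over all genes measured there, with 3 genes at least 1.5-fold higher and 0 lower, beside 17.8% and 6.31% of genes. Polr1a had 28 UMIs in the DMSO library and 58 in the selinexor library, a ratio of 1.40 (0.81 to 2.19). Wdr12 had 23.4 and 51.3 CPM, a ratio of 1.10 (0.66 to 1.62), and Rrs1, a large subunit factor, 27.3 and 48.7 CPM, a ratio of 0.81 (0.38 to 1.30). Eif6 had the lowest ratio in this cluster, -0.30 (-0.52 to -0.09). Monocyte markers held 0.134% and 0.305% of UMIs in cluster 7, and their part was not tested. Myc had 17.3 and 39.9 CPM there, 27.1 and 8.35 CPM in the late class, 24.3 and 42.6 CPM in the early class and 15.1 and 22.1 CPM in the intermediate class. In macrophage-like cells it had 50 and 11 UMIs, or 20.2 and 18.9 CPM, a ratio of -0.09 (-1.18 to 0.87). Over whole libraries Myc had a ratio of 0.35 (0.14 to 0.59), beside medians of the 38 genes of 0.03 there and -0.03 in both the early and the intermediate class. In cluster 9, 16 of 35 measured genes were higher by at least 1.5-fold and 4 lower, beside 24.2% and 19.5% of genes, with median cell depths of 2145 and 7497 UMIs. The share of its cells with Mki67 or Top2a was 17.8% and 44.0%, and its part was not tested.

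The export and release genes can be followed through every state. Eif6 had 158 and 104 CPM in cluster 10, 91.6 and 85.0 in cluster 6, 72.5 and 33.5 in cluster 4, and 59.3 and 59.5 in cluster 5. It had 184 and 149 CPM in cluster 7, 150 and 115 in macrophage-like cells and 200 and 113 in cluster 9. Its selinexor level was thus lower in 6 of these 7 clusters and level in cluster 5. The intervals of its CPM overlapped between libraries in clusters 10, 6 and 5 and in macrophage-like cells. In cluster 7 they nearly met, with 167.8 to 201.2 and 132.5 to 167.5 CPM. Nmd3 had 31 and 16 UMIs in cluster 6, a ratio of -0.88 (-1.92 to -0.03), and 40 and 20 over both intermediate clusters, a ratio of -0.99 (-1.93 to -0.27). In early neutrophil-like cells Nmd3 had 36.5 and 36.2 CPM, and in cluster 7 it had 26.9 and 35.7 CPM, a ratio of 0.40 (-0.09 to 0.91). Ltv1 was lower in the intermediate class, with 53 and 33 UMIs and a ratio of -0.72 (-1.43 to -0.11), and higher in macrophage-like cells. Over both intermediate clusters 37 of the 38 genes were measured with a median of -0.03, and these 2 were the ones lower by at least 1.5-fold, beside 7.14% of genes. In the partition used here Wdr12 was the 1 at least 1.5-fold higher, at 0.63 (-0.03 to 1.40), beside 9.34%. The class median moved with the clustering, and over 20 seeds it ran from -0.67 to 0.12, with 1 to 11 genes lower by that fold. The class itself changed between seeds. At the lowest median 11 of 15 measured genes were lower, in 141 DMSO and 163 selinexor cells. At the highest, 35 genes were measured in 336 and 451 cells. Shares of all genes are not given for these seeds.

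**Figure D5:**
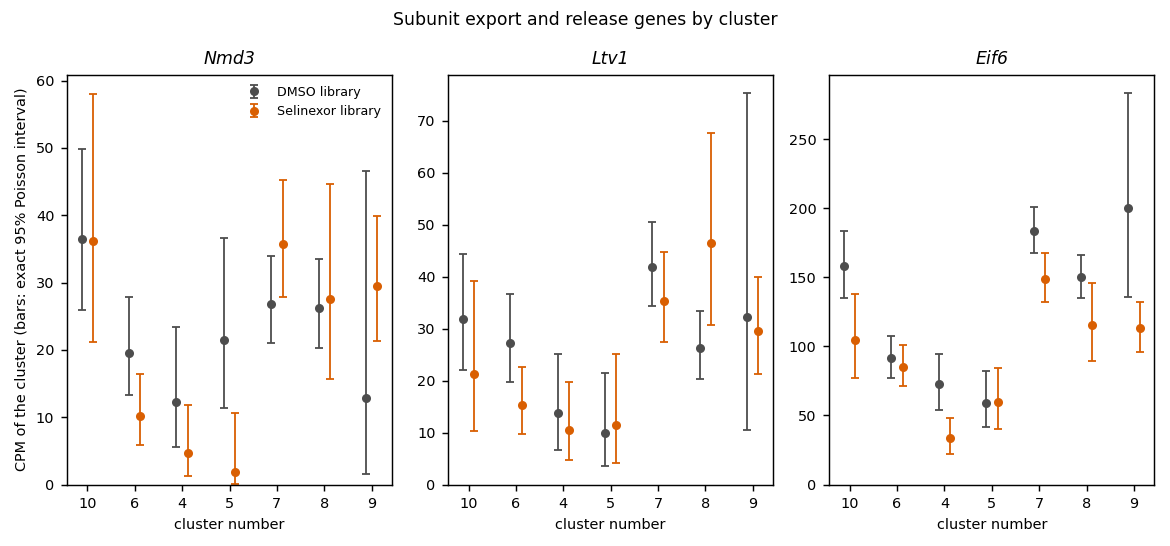
CPM of Nmd3, Ltv1 and Eif6 (y axes, different scales) in 7 clusters (x axes) of both libraries, with exact 95% Poisson intervals. Eif6 is lower with selinexor in every cluster shown but cluster 5, and its intervals overlap between libraries in clusters 10, 6, 5 and 8. The intervals of Nmd3 and Ltv1 overlap between libraries in every cluster but cluster 5 for Nmd3.

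The 107 other ribosome biogenesis genes on a second list had a median log2 ratio of 0.11 over whole libraries, with 70 above 0 and 37 below, 2 higher by at least 1.5-fold and 0 lower; with TMM scaling the median was -0.02. The highest were Nob1, the nuclease that finishes the small subunit RNA (144 and 206 UMIs, 0.62), Nol6 (0.59) and Surf6 (0.57). The lowest with at least 100 UMIs were the RNA exosome subunits Exosc4 (714 and 443 UMIs, -0.52) and Exosc7 (-0.50) and the large subunit factor Rpf2 (-0.49). In the late class 91 of the 107 were measured, with a median of -0.17, 9 at least 1.5-fold higher and 18 lower, where 24.6% and 10.2% of all genes were. There the median of the 38 genes was further below 0. From cluster 6 to cluster 4 the other genes had medians of -1.08 and -1.13. The 7 genes with CACGTG in the promoter had a median ratio of 0.15 over whole libraries, and the 25 with a promoter but no motif had 0.03. In macrophage-like cells these medians were 0.43 and 0.14, and in cluster 7 they were 0.40 and 0.17. Pes1, Ltv1 and Nop2, named above as higher in macrophage-like cells, are among the 7, and the interval of Nop2 reached below 0. Myc itself had a ratio of -0.09 (-1.18 to 0.87) in those cells. In the late class the medians were -0.53 over 6 genes and -0.60 over 24. In the early class they were -0.01 over 7 genes and -0.03 over 22, and in the intermediate class -0.03 over 7 and -0.08 over 24. These sets are small and no test was made of them.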

How the data were processed

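The deposited files hold UMI counts per gene and cell that the authors made with Cell Ranger 6.1.2 against mm10, per the file headers (version) and the submitters' processing notes (build). For the rule for calling cells and the annotation release, nothing was given in the sources used here. Cells were kept if they had 200 or more genes and less than 10% mitochondrial UMIs. Scrublet in scanpy 1.11.5 called 1 and 5 doublets, 0.162% of 3710 cells, so the data still hold nearly all doublets. Cells of both libraries were clustered together by Leiden (leidenalg 0.10.2, resolution 1, 2000 variable genes, 30 components, 15 neighbours) with the 38 genes and the other pathway genes left out. The partition depended on the seed (12 to 15 clusters), so the one of highest quality among 20 seeds was used. Clusters were named from marker lists.

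UMIs were summed per library and class and scaled to CPM. Log2 ratios use a pseudocount of 1 CPM. A gene counted as measured with at least 50 UMIs over both libraries, or 20 in a class, and a class was compared with at least 20 cells in each library. Ratios have exact conditional binomial intervals at 95%, covering counting error only. No test was made, since each group is 1 library. The calculation was checked on simulated counts. Scaling by TMM (edgeR 4.0.16, R 4.3.3), median-of-ratios, other floors, pseudocounts, filters, cell mixes and clusterings were tried. Genes were named by role, by the highest and lowest ratios and by UMIs.

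The members and lists were chosen with earlier results of these data known. The rule for naming clusters, the choice among seeds, the 400000-UMI minimum for ranking clusters by level and the look at cluster 5 alone were set after values had been seen. That minimum was lowered from a higher one that left out cluster 10 of the selinexor library. An earlier single-seed clustering, which varied with the processor, was discarded for the one used here.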

Additional observations from a re-analysis of the deposited data

Results flagged for a closer look

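Gnl3, a nucleolar GTPase of large subunit assembly, had opposite directions in 2 neutrophil-like classes, with both counting intervals on their own side of 0. Its log2 ratio was 0.63 in the early class and -1.13 in the late class, and the difference between the classes was not tested. Within the late class Gnl3 had 69.8 and 24.5 CPM in cluster 1, the latter from 1 UMI. It had 36.3 and 23.8 CPM in cluster 0 and 21.4 and 21.1 CPM in cluster 5. The counting interval of its ratio spanned 0 in each of these clusters. The lower level is thus shown for the class and not within a single late cluster, and the part of the cluster mix was not tested. Ltv1, a late small subunit factor, had a log2 ratio of 0.80 in macrophage-like cells and -0.72 in the intermediate neutrophil-like class, and that difference was not tested either.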

How the results depend on the processing

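No paired analysis was possible because each group holds 1 library. Over whole libraries the summed level of the 38 genes had a log2 ratio between -0.23 and 0.16 under all settings tried: -0.14 with TMM, -0.15 with median-of-ratios factors, -0.23 when each cell had the same weight, 0.032 under stricter cell filters (1000 genes, 5% mitochondrial UMIs), 0.16 with the same cell mix in both libraries, -0.040 without low-UMI clusters, -0.067 without cells with Mki67 or Top2a and -0.057 after thinning to 2000 UMIs. The median was -0.11 with either scaling factor, -0.21 with equal weights, -0.13 without cells with Mki67 or Top2a and 0.18 with the same cell mix, where that of all genes was 0.08. The count of genes at least 1.5-fold lower was 2 with equal weights and 2 without those cells, where 6.28% and 4.2% of all genes were, and the count higher was 2 with the same cell mix and 1 after thinning, where 6.94% and 11.9% were. The cause was not tested. TMM turned the split of all genes from 9.82% higher and 3.86% lower to 5.99% and 6.16%. Of the values of single genes over whole libraries, 278 stayed within the counting interval and 102 did not, and none that was past 1.5-fold changed sign, since 0 were.

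The late class stayed below 0 under every setting that gave a value, from -1.18 (thinned cells, with another mix of clusters) to -0.27 (cluster 5 alone). The intermediate class was at -0.67 at the lowest of 20 seeds, where 15 genes were measured and 11 were lower. It was at -0.49 with 12 genes lower when genes were centred per library. Shares of all genes are not given beside these counts. Early cells with no Mki67 or Top2a UMI, such cells of clusters 6 and 7, and macrophage-like cells at resolution 1.5 were too few for a value. The late class had medians of 2355 and 1134 UMIs per cell, so genes with few UMIs there could not be measured.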
